A study of Homo sapiens with 50 samples.

Results

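The comparison is that of A549 cells kept without serine with A549 cells kept with serine, both under 1 uM compound 16 for 24 h. It rests on 6 of the 50 arrays of the series, chosen by their titles: 3 arrays without serine (numbered 99, 100 and 101) and 3 with serine (93, 94 and 95). The series asks whether a small molecule that activates the pyruvate kinase PKM makes cancer cells depend on external serine. Transcripts were measured on Affymetrix HG-U219 arrays, and values are log2 signals of probe sets. All groups are of 1 established line, A549, from a human lung adenocarcinoma, with no genetic change named. The cells had grown in RPMI and were moved, 24 h before the compound or its vehicle DMSO was added, to BME that held non-essential amino acids and that either contained serine or lacked it. The same contrast of media was taken in DMSO at 24 h and under the compound at 6 h, each with 3 arrays a group. Whether replicate arrays stand for separate cultures is not in the labels, so every p-value here is set by array-to-array spread, part or all of which may be technical. Their numbers run group by group within a time, so a drift in that order and an effect of the medium cannot be told apart.

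Serine is made from the glycolytic intermediate 3-phosphoglycerate by PHGDH, PSAT1 and PSPH, and it feeds protein, glycine, one-carbon units, phospholipids and nucleotides. PKM acts below that branch point, so its activity bears on how much carbon is left for serine synthesis. Cells short of an amino acid accumulate uncharged tRNA, which activates the kinase GCN2, slows general translation and raises translation of ATF4, a transcription factor that drives transporters, tRNA synthetases and biosynthetic enzymes. Mitosis genes are transcribed late in the cell cycle, sterol synthesis genes when membranes hold little sterol, and interferon-stimulated genes after interferon binds its receptors.

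At 24 h under the compound, lack of serine went with a higher level of NIBAN1, a stress-induced regulator of translation, and with lower levels of nearly all mitosis genes, of 11 of 21 cholesterol synthesis genes and of 9 of 42 interferon-stimulated genes. NIBAN1 lay at 9.95, 9.86 and 9.95 without serine and at 7.68, 7.39 and 7.73 with it. KIF20A, a kinesin of cytokinesis, lay at 8.84, 8.77 and 8.83 without and at 9.73, 9.68 and 9.71 with serine. IFIT1, which binds viral RNA and is induced by interferon, lay at 6.30, 6.31 and 6.02 without and at 7.35, 7.61 and 7.65 with serine. In none of the 3 genes did the arrays of the 2 media overlap. The log2 differences (without minus with serine, here and below) were 2.32 ± 0.16 for NIBAN1 (SE, 5.0-fold, adjusted p = 1.58e-12), -0.89 ± 0.07 for KIF20A (1.86-fold lower, adjusted p = 4.17e-12) and -1.33 ± 0.18 for IFIT1 (2.51-fold lower, adjusted p = 1.92e-06), by limma with Benjamini-Hochberg adjustment over all genes. The 3 probe sets of NIBAN1 ran from 0.77 to 2.32, so the value given is the largest of them.

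Of 18239 genes tested, 800 (4.39%) were called at an adjusted p under 0.05, 337 higher (1.85%) and 463 lower (2.54%) without serine. The median SE of a difference was 0.122. Among the called genes 7 were at least 2-fold higher and 9 at least 2-fold lower. The 7 higher ones were NIBAN1, NEFL, CLGN, TXNIP, BEX2, BCAT1 and ABCG1, and the 9 lower ones IFIT1, MGAM, LGALS2, NID2, HLA-DMA, NR4A1, TNNC1, CTSV and OAS1. The arrays of the 2 media did not overlap in 786 of the 800 called genes, and in 3728 (20.4%) of all genes, of which 10.2% of all genes were higher and 10.2% lower. With each array centred on its median, 437 genes were higher and 408 lower, so this scaling changed which direction held more genes. With quantile normalization 334 were higher and 449 lower. The spread was estimated over all 50 arrays. With only the 6 arrays of the comparison fitted, 91 genes were called (2395 at an unadjusted p under 0.05). Differences between 2 arrays within a group had an SD across genes of 0.220 to 0.239 among the 6 arrays of the comparison. For ACTB, whose 3′ and 5′ probe sets report on intact RNA, 3′ minus 5′ was 1.14 to 1.33 without and 1.13 to 1.24 with serine. Of 7 epithelial genes that A549 is known to express strongly, among them KRT8, KRT18 and EPCAM, 0 were called and the mean signal was 12.98 to 13.02 without and 12.97 to 13.02 with serine. The leukocyte, endothelial and fibroblast markers were dim, with mean signals of 4.91 to 5.21, 4.42 to 4.62 and 4.38 to 4.52 without serine, and 0 were called.

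In DMSO the same contrast of media at 24 h held fewer calls: 29 genes (0.159%) were called, 16 higher (0.0877%) and 13 lower (0.0713%) without serine. The difference between the effect under the compound and that in DMSO was tested as an interaction, and 234 genes (1.28%) were called, 70 with a higher (0.384%) and 164 with a lower (0.899%) effect under the compound. Centring moved this split to 94 and 119, and the DMSO split to 10 and 20. The DMSO count of 29 was 9 without array 98, which was with serine, and 11, 15 or 17 without 1 of the 3 arrays that lacked serine. Of the 16 genes higher in DMSO, 5 were also higher under the compound (31.2% of 16, 1.48% of 337): ASS1, which makes argininosuccinate from citrulline and aspartate, CEMIP, ENC1, FCGBP and KDELR3. Of the 13 lower in DMSO, OPN3 was also lower under the compound. These 6 genes were looked up after their values were seen. ASS1 differed by 0.60 under the compound and 0.42 in DMSO, and the interaction did not pass (0.18, adjusted p = 0.588).

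**Figure D1:**
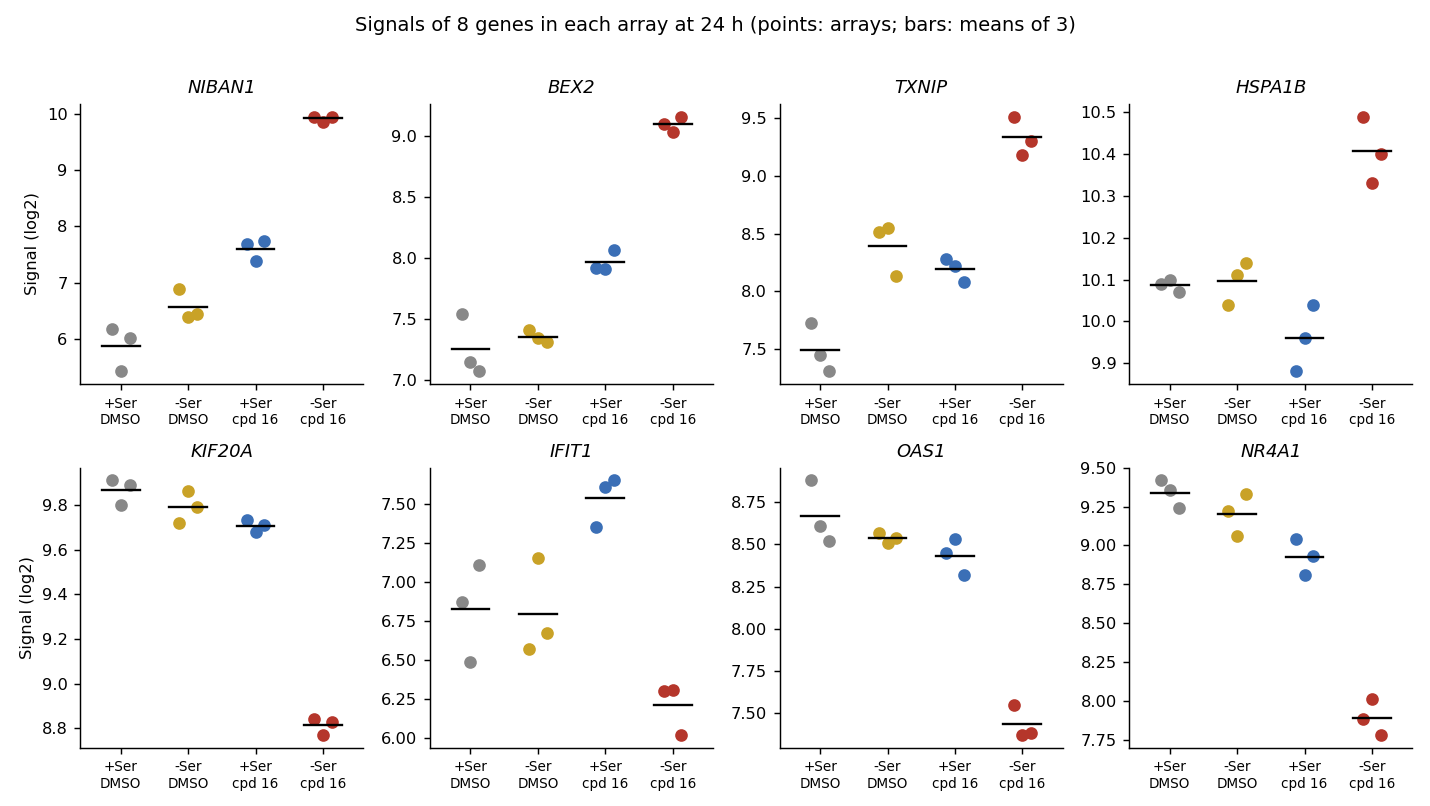
Log2 signals of 8 genes (y axis) in each of 3 arrays (points) of the 4 groups at 24 h (x axis), with group means as bars. In NIBAN1, BEX2, HSPA1B, KIF20A, IFIT1, OAS1 and NR4A1 the arrays without serine under the compound lie outside the range of the other 9 arrays. In TXNIP they lie above all of them. The DMSO arrays of TXNIP without serine also lie above those with it, a gap that was not called.

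The amino acid response had members far apart from each other. Of 29 measured genes of the ATF4 programme, 6 were higher without serine (20.7%, against 1.85% of all genes). Another 1 was lower (3.45%, against 2.54% of all genes). The median of the 29 was 0.06 beside 0.00 over all genes. BEX2, a small adaptor protein, lay at 9.10, 9.03 and 9.16 without and at 7.92, 7.91 and 8.07 with serine, which do not overlap, and differed by 1.13 ± 0.12 (2.19-fold, adjusted p = 3.03e-08). The other 4 higher members differed less: EIF4EBP1, an inhibitor of cap-dependent translation, by 0.43 ± 0.06, ATF5 by 0.32 ± 0.09, CEBPG by 0.26 ± 0.05 and TRIB3, a pseudokinase that feeds back on ATF4, by 0.25 ± 0.07 (adjusted p = 0.0404). The TRIB3 call was lost without any 1 of 5 of the 6 arrays, all but array 99. With only the 6 arrays fitted 2 of the 29 were called. CTH, which releases cysteine from cystathionine, was the 1 lower member, at -0.73 ± 0.13 (adjusted p = 0.000228).

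Most of the programme did not separate the media at 24 h. ASNS, the asparagine synthetase, lay at 12.63, 12.70 and 12.71 without and at 12.66, 12.61 and 12.60 with serine, so its arrays overlapped, and the difference was 0.06 ± 0.07 (adjusted p = 0.764). ATF4 itself stood at 0.01 ± 0.05, DDIT3 at 0.03 ± 0.20, CHAC1 at -0.01 ± 0.16, PCK2 at -0.09 ± 0.09, SESN2 at -0.14 ± 0.12 and NUPR1 at -0.21 ± 0.12, none of them called. STC2, a secreted glycoprotein, differed by 0.42 ± 0.17 (adjusted p = 0.18). In DMSO, 5 of the 29 were lower without serine (17.2%, against 0.0713% of all genes) and 0 higher: NUPR1 (-0.79), CBS (-0.77), ASNS (-0.49), CARS1 (-0.39) and ATF4 (-0.25). The effect under the compound exceeded that in DMSO for 7 members (against 0.384% of all genes), with the largest interactions in NIBAN1 (1.62 ± 0.23, adjusted p = 2.92e-05), BEX2 (1.03, adjusted p = 0.000319) and CBS (0.73, adjusted p = 8.34e-05). For CBS and ASNS the interaction came with a negative effect in DMSO and an effect near 0 under the compound.

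Earlier, at 6 h, the programme had separated the media almost throughout. Under the compound at that time, 26 of the 29 were higher without serine (89.7%, against 6.22% of all genes) and 0 lower, with a median of 1.28. STC2 had differed by 3.42 (adjusted p = 4.43e-18), NIBAN1 by 3.04, TRIB3 by 2.78, DDIT3 by 2.23 and NUPR1 by 2.13. The effect at 24 h was lower than that at 6 h for 23 members (79.3%, against 2.97% of all genes) and higher for 0. The change of the effect from 6 h to 24 h was -3.00 for STC2, -2.54 for TRIB3, -2.34 for NUPR1 and -2.21 for DDIT3. The change of NIBAN1 from 6 h to 24 h, -0.72, did not pass (adjusted p = 0.0631), nor did those of PPP1R15A, ATF5, PYCR1, ALDH18A1 and FGF21. The mean signal of the 29 genes under the compound with serine was 8.23 ± 0.03 at 6 h (SD, n = 3) and 9.02 ± 0.03 at 24 h. Without serine it was 9.59 ± 0.04 and then 9.18 ± 0.02. In DMSO it was 8.22 ± 0.02 with and 8.70 ± 0.01 without serine at 6 h, so the media also lay apart there, a contrast that was not tested. In DMSO at 24 h it was 8.21 ± 0.03 with and 8.07 ± 0.03 without serine. NIBAN1 under the compound was at 6.42 ± 0.13 with serine at 6 h and 7.60 ± 0.19 at 24 h, and without serine at 9.46 ± 0.07 and 9.92 ± 0.05.

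The enzymes that make serine were not called at 24 h under the compound. PHGDH differed by 0.14 ± 0.08 (adjusted p = 0.4), PSAT1 by 0.11 ± 0.08 (adjusted p = 0.551) and PSPH by 0.03 ± 0.06 at 24 h, against 0.89, 1.06 and 0.85 at 6 h. The PHGDH arrays at 24 h lay at 11.12, 11.12 and 11.18 without and 11.06, 10.98 and 10.95 with serine. They do not overlap, though the difference did not pass. From 6 h to 24 h under the compound, mean PHGDH went from 9.70 to 11.00 with serine and from 10.59 to 11.14 without. Mean PSAT1 went from 11.70 to 12.33 with and from 12.75 to 12.44 without serine, and PSPH from 10.11 to 10.61 and from 10.96 to 10.64. In DMSO at 24 h the means with and without serine were 9.54 and 9.54 for PHGDH, 11.51 and 11.13 for PSAT1, and 10.25 and 10.13 for PSPH. By limma PSAT1 was called lower without serine in DMSO (-0.39, adjusted p = 0.0271), a call lost in 6 of 14 alternatives. Its interaction also passed (0.50, adjusted p = 0.0138). Of 10 genes of serine synthesis and use, among them the serine palmitoyltransferase and phosphatidylserine synthase genes, 0 were called under the compound at 24 h by limma. There 0 had an unadjusted p under 0.05. In one-carbon and glycine metabolism, SHMT2, which splits serine into glycine and a one-carbon unit in mitochondria, stood at 0.14 ± 0.07 (adjusted p = 0.322). MTHFD2 stood at 0.01 ± 0.06. Of the 20 genes 1 was called, and it was lower (5%, against 2.54% of all genes). It was GLDC, of the glycine cleavage system, at -0.34 ± 0.10 (adjusted p = 0.0288). The GLDC call was lost without array 94, 95 or 99. Of 19 cytosolic aminoacyl-tRNA synthetases, 3 were higher (15.8%, against 1.85% of all genes): WARS1 by 0.41 ± 0.06 (adjusted p = 4.39e-06), SARS1, which charges serine tRNA, by 0.33 ± 0.06 (adjusted p = 0.000939) and IARS1 by 0.18 ± 0.05. The IARS1 call was lost in 6 of 14 alternatives, among them the runs without array 94, 99 or 100. The interaction with DMSO was positive for 7 of the 19 (against 0.384% of all genes), among them YARS1 (0.62) and MARS1 (0.62), which were lower without serine in DMSO. Of 20 amino acid transporters 0 were called at 24 h by limma (2 at an unadjusted p under 0.05), and 12 had been higher at 6 h (60%, against 6.22% of all genes). BCAT1, the cytosolic branched-chain aminotransferase, was apart from these, at 10.19, 10.18 and 9.79 without and 9.07, 8.59 and 9.13 with serine. The arrays of BCAT1 did not overlap and differed by 1.12 ± 0.17 (2.18-fold, adjusted p = 1.06e-05), with an interaction of 1.01 (adjusted p = 0.0151). Its 5 probe sets ran from 0.33 to 1.12.

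**Figure D2:**
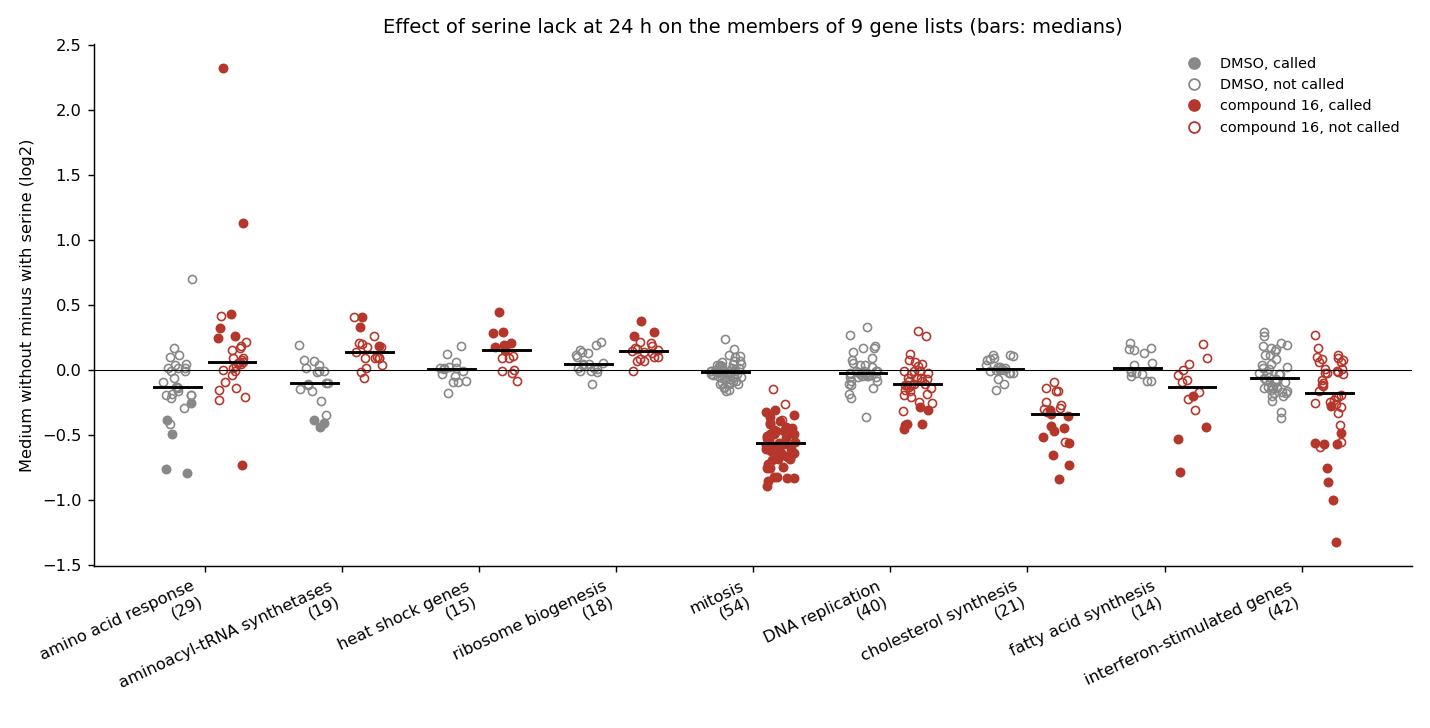
Log2 difference between medium without and with serine at 24 h (y axis) for each measured member (points) of 9 gene lists (x axis, with the number of members), in DMSO (grey) and under compound 16 (red); filled points were called and bars are medians. The mitosis genes under the compound lie below 0 with a median of -0.57, while in DMSO they centre on -0.02.

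Mitosis genes were lower without serine almost as a block. Of 54 measured members 50 were lower (92.6%, against 2.54% of all genes) and 0 higher, and all 54 had a negative difference, from -0.89 to -0.15, with a median of -0.57. In bulk samples fewer cells in mitosis and less RNA per such cell cannot be told apart. DLGAP5, which stabilizes spindle microtubules, lay at 9.84, 9.63 and 9.65 without and at 10.49, 10.56 and 10.63 with serine, with no overlap, and differed by -0.85 ± 0.08 (adjusted p = 3.44e-10). By role, 10 of 11 kinesins were lower (median -0.75), 12 of 13 mitotic kinases and cyclins (-0.52), 10 of 12 kinetochore and centromere genes (-0.54), 9 of 9 spindle and cytokinesis genes (-0.61) and 7 of 7 genes of exit and separation (-0.56). CCNB2, a B-type cyclin, differed by -0.60 ± 0.05 and AURKA, a spindle pole kinase, by -0.64 ± 0.06. FOXM1 and MYBL2, which transcribe these genes, differed by -0.49 ± 0.08 and -0.47 ± 0.10. The 4 members that did not pass were KIF15, PLK1, MAD2L1 and NUF2, at -0.49, -0.38, -0.26 and -0.15. With any 1 array left out 46 to 49 members were called, and with only the 6 arrays fitted 28.

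In DMSO at 24 h, 0 of the 54 mitosis genes were called by limma (1 at an unadjusted p under 0.05), with a median of -0.02, and the interaction was negative for 40 of them (74.1%, against 0.899% of all genes). KIF20A in DMSO lay at 9.72, 9.86 and 9.79 without and 9.91, 9.80 and 9.89 with serine, which overlap. At 6 h under the compound 40 of the 54 were lower without serine (against 5.54% of all genes), with a median of -0.36. From 6 h to 24 h the effect grew more negative for 12 members (22.2%, against 2.97% of all genes), among them KIF20A by -0.38 (adjusted p = 0.00951), and less negative for 1. The mean signal of the list showed that the media had differed before the compound was given: at 0 h it was 9.28 ± 0.05 without and 9.62 ± 0.02 with serine in the arrays labelled for the compound, and 9.28 ± 0.03 and 9.63 ± 0.01 in DMSO. In DMSO at 6 h it was 9.15 ± 0.03 without and 9.45 ± 0.02 with serine, a contrast that was not tested. By 24 h the DMSO groups were level, at 9.53 ± 0.01 and 9.54 ± 0.03. Under the compound at 24 h the mean was 8.88 ± 0.04 without and 9.44 ± 0.03 with serine.

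The upstream windows of 2 mitosis genes are shown. KIF20A was planned for printing. DLGAP5 was picked as the called mitosis gene with the largest fall among those that hold both motifs below. Its matches were therefore set by the choice. They are the 250 bases before the gene start in the RefSeq promoter table of GRCh38.p14, read 5′ to 3′ on the strand of the gene, with capitals for CCAAT and TTTGAA on either strand, the box bound by NF-Y and the core of the cell cycle homology region. KIF20A is at chr5:138178862-138179111 on the plus strand, with CCAAT matches that start at -94 and -67 relative to the gene start. DLGAP5 is at chr14:55191586-55191835 on the minus strand, with CCAAT matches at -87 and -22 and TTTGAA matches at -138 and -109.
KIF20A: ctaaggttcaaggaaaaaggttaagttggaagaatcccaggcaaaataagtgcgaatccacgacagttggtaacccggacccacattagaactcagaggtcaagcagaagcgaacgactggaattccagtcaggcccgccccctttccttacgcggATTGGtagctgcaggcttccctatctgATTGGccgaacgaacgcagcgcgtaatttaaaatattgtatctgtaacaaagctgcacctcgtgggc
DLGAP5: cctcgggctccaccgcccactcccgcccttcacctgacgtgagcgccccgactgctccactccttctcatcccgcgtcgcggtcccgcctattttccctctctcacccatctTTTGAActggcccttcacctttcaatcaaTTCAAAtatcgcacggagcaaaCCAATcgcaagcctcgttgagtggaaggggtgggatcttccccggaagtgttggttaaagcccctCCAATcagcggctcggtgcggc
CCAAT was in the window of 29 of the 42 called mitosis genes with a window in the table (69%), and of 34.6% of all 14492 array genes with a window. TTTGAA was in 19 of the 42 (45.2%) and in 10.8% of all. Both were in 17 of the 42 (40.5%) and in 4.24% of all. Among all genes called lower at 24 h the shares were 54.7% for CCAAT and 20.7% for TTTGAA, and among those called higher 35.4% and 3.25%. A match is a run of letters and not a measured site.

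DNA replication genes, which act in S phase, held fewer calls at 24 h. Of 40 members 6 were lower (15%, against 2.54% of all genes) and 0 higher, with a median of -0.11: POLA2 (-0.45 ± 0.12) and PRIM1 (-0.29 ± 0.05) of the primase complex, CDT1, which loads the replicative helicase (-0.42 ± 0.10), LIG1 (-0.42 ± 0.09), and the nucleotide enzymes TK1 (-0.42 ± 0.07) and RRM2 (-0.31 ± 0.06). The count was 3 without array 99, and 0 with only the 6 arrays fitted in limma (9 at an unadjusted p under 0.05). At 6 h, 31 of the 40 had been lower (77.5%, against 5.54% of all genes), with a median of -0.44. From 6 h to 24 h the effect moved up for 16 members (against 1.96% of all genes), by up to 1.31 for CDC25A, a phosphatase of the G1/S step, and down for PRIM1, by -0.32. Under the compound the mean signal of the list with serine was 9.59 ± 0.00 at 6 h and 9.03 ± 0.03 at 24 h. Without serine it was 9.16 ± 0.02 and 8.92 ± 0.06. In DMSO at 6 h it was 9.61 ± 0.05 with and 9.38 ± 0.01 without serine, a contrast that was not tested.

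**Figure D3:**
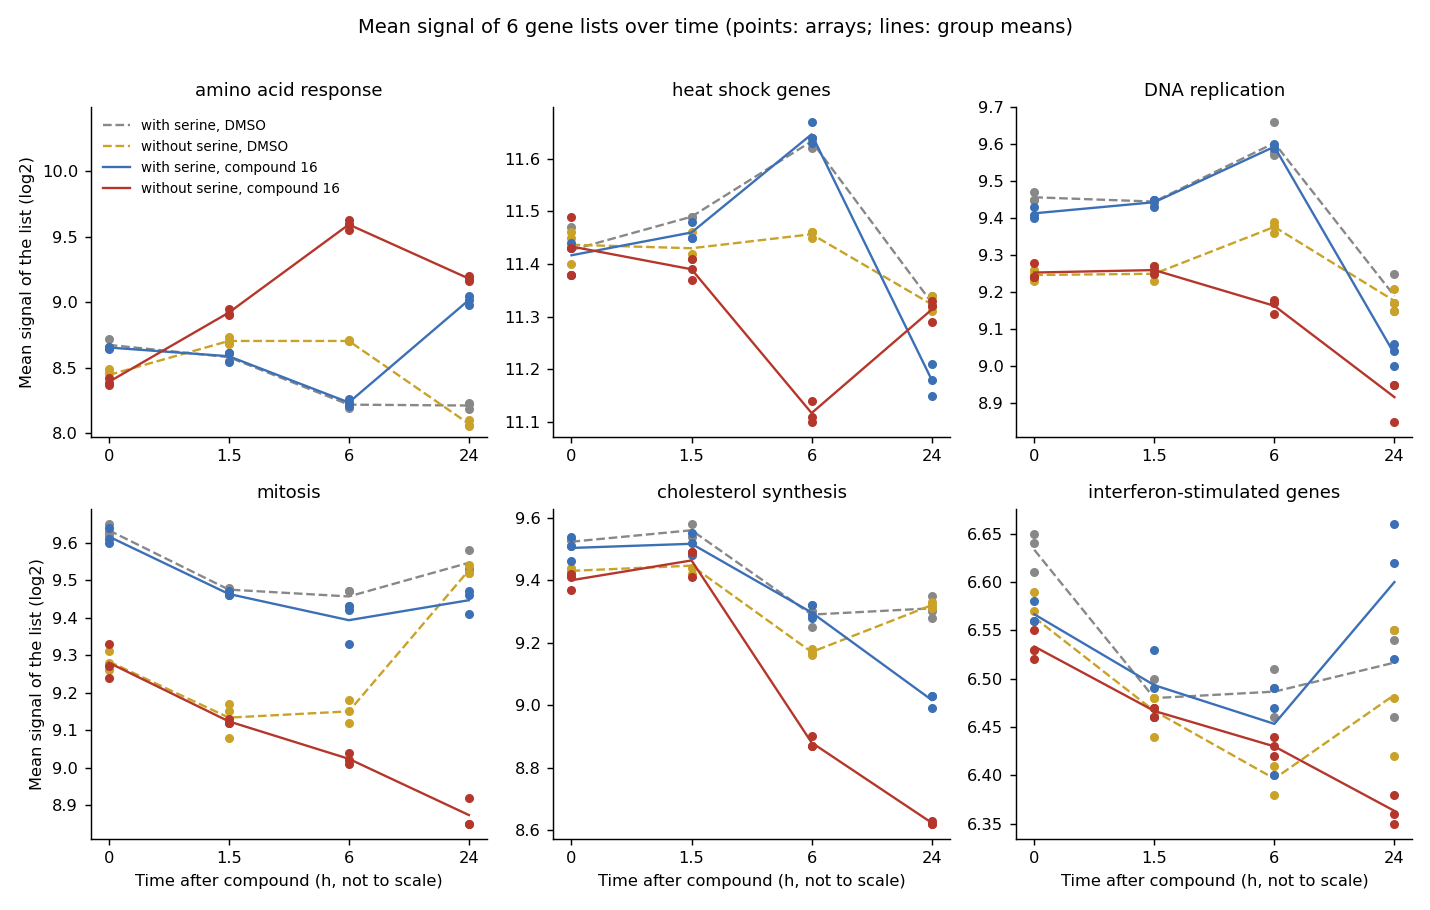
Mean log2 signal of 6 gene lists (y axis) at 0, 1.5, 6 and 24 h after the addition (x axis, not to scale), with points for arrays and lines through group means, in medium with and without serine under compound 16 or DMSO (3 arrays a group, but 2 with serine in DMSO at 1.5 h). The amino acid response list reached 9.02 with and 9.18 without serine under the compound at 24 h, and the mitosis list stood at 9.44 and 8.88 while both DMSO groups met near 9.53.

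Genes of cholesterol synthesis, most of them targets of the sterol-sensing factor SREBP2, were lower in 11 of 21 cases (52.4%, against 2.54% of all genes) and higher in 0, with a median of -0.34, and all 21 differences were negative. ACAT2, the cytosolic thiolase of the first step, lay at 9.96, 9.85 and 9.99 without and 10.72, 10.52 and 10.54 with serine, with no overlap, and differed by -0.66 ± 0.06 (adjusted p = 4.95e-10). DHCR7, of the last step, lay at 8.34, 8.54 and 8.18 without and 9.08, 9.40 and 9.10 with serine, and differed by -0.84 ± 0.10 (adjusted p = 1.39e-07). Other called members were MVK (-0.73), LSS (-0.56), EBP (-0.52), TM7SF2 (-0.47), SQLE (-0.45), IDI1 (-0.43), FDPS (-0.35), MSMO1 (-0.34) and INSIG1 (-0.31). HMGCS1 (-0.30, adjusted p = 0.109) and SREBF2, which encodes SREBP2 (-0.29, adjusted p = 0.097), did not pass. With only the 6 arrays fitted 3 of the 21 were called. In DMSO 0 of the 21 were called by limma (0 at an unadjusted p under 0.05), with a median of 0.01, and the interaction was negative for 7 (against 0.899% of all genes). At 6 h 13 of the 21 had been lower (61.9%, against 5.54% of all genes), with a median of -0.45. Between 6 h and 24 h the effect on DHCR7 became more negative by -0.61 (adjusted p = 0.0057), and that on INSIG1 and HMGCS1 less negative by 0.64 and 0.66. At 24 h the mean signal of the list in DMSO was 9.31 ± 0.03 with and 9.32 ± 0.01 without serine. Under the compound it was 9.01 ± 0.02 with and 8.62 ± 0.00 without serine. In DMSO at 6 h it had been 9.29 ± 0.04 with and 9.17 ± 0.01 without serine, a contrast that was not tested. In fatty acid synthesis 4 of 14 genes were lower (28.6%, against 2.54% of all genes) and 0 higher: the desaturase genes SCD (-0.44 ± 0.04), FADS1 (-0.53 ± 0.07) and FADS2 (-0.79 ± 0.13), and ACACA (-0.20 ± 0.06). SCD and FADS1 had stood at -0.06 and -0.05 at 6 h, and the change to 24 h passed for both (adjusted p = 0.000128 and 0.0016). ABCG1, a transporter that exports sterols from cells, was higher without serine, at 6.62, 6.82 and 6.67 against 5.69, 5.56 and 5.74, which do not overlap. The difference in ABCG1 was 1.04 ± 0.19 (2.05-fold, adjusted p = 0.000253), and its interaction with DMSO did not pass (0.71, adjusted p = 0.238). The 5 probe sets of ABCG1 ran from -0.08 to 1.04, with 4 above 0. CCAAT was in the upstream window of 8 of 9 called cholesterol genes with a window (88.9%). The share was 34.6% of all genes with a window and 54.7% of all genes called lower.

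Interferon-stimulated genes, which cells switch on through the interferon receptors and the factor complex that holds IRF9, were lower without serine in 9 of 42 cases (21.4%, against 2.54% of all genes) and higher in 0. The median was -0.18, with 31 negative and 11 positive differences, and 14 of the 42 lay under the 40th percentile of signal (5.16), where changes of probe sets are compressed. With only the 6 arrays fitted 3 of the 42 were called. OAS1, an activator of RNase L, lay at 7.55, 7.37 and 7.38 without and at 8.45, 8.53 and 8.32 with serine. IFITM1, which blocks virus entry, lay at 7.99, 7.89 and 7.88 without and at 8.57, 8.84 and 8.94 with serine. The media do not overlap in either gene. The differences were -1.0 ± 0.08 for OAS1 (2.0-fold lower, adjusted p = 7.24e-11) and -0.86 ± 0.15 for IFITM1 (1.82-fold lower, adjusted p = 0.000112). The other called members were IFITM3 (-0.75 ± 0.18), IRF9 (-0.58 ± 0.09), HERC5 (-0.57 ± 0.13), ISG15 (-0.56 ± 0.15), OAS3 (-0.48 ± 0.06, with 1 of 3 probe sets of the opposite sign) and IFI35 (-0.28 ± 0.08). Well-known members such as MX1 (-0.29 ± 0.18), IFIT2 (-0.26 ± 0.21), IFIT3 (-0.02 ± 0.21) and IFI6 (0.06 ± 0.17) did not pass. Of 17 interferon, receptor and signalling genes IFNGR1, a subunit of the interferon gamma receptor, was higher by 0.30 ± 0.06 (5.88%, against 1.85% of all genes). Of 15 antigen presentation genes PSMB9, an immunoproteasome subunit, was lower by -0.64 ± 0.10 (6.67%, against 2.54% of all genes). The 3 probe sets of PSMB9 ran from -0.64 to 0.06, with 2 below 0. HLA-DMA, a peptide loading factor of MHC class II, was outside that list and differed by -1.05 ± 0.10 (adjusted p = 3.23e-09).

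In DMSO 0 of the 42 interferon-stimulated genes were called by limma (3 at an unadjusted p under 0.05), and the interaction was negative for 4 (against 0.899% of all genes): OAS1 (-0.87, adjusted p = 1.76e-05), IFIT1 (-1.30, adjusted p = 0.00211), IFITM1 (-0.98, adjusted p = 0.00637) and IRF9 (-0.49, adjusted p = 0.044). The levels differed in kind between genes. IFIT1 in DMSO lay at 6.57, 7.15 and 6.67 without and 6.87, 6.49 and 7.11 with serine, so that both compound groups were off the DMSO range, the one with serine above it and the one without below it. OAS1 in DMSO lay at 8.57, 8.51 and 8.54 without and 8.88, 8.61 and 8.52 with serine, and 1 of the 3 arrays under the compound with serine reached that range while all 3 without serine lay further below it. At 6 h OAS1 (-0.58) and OAS3 (-0.39) of the 42 were lower without serine (4.76%, near the 5.54% of all genes), and IRF9 was higher (0.34). The effect became more negative by 24 h for 5 genes (11.9%, against 2.97% of all genes), among them IFIT1 (-1.17, adjusted p = 0.00282), IFITM1 (-1.11) and IRF9 (-0.91). At 0 h IFIT1 had been at 6.94 ± 0.21 with and 6.46 ± 0.25 without serine in the arrays labelled for the compound, and at 7.06 ± 0.32 and 6.38 ± 0.03 in DMSO.

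Windows of 2 interferon-stimulated genes are shown for the core of the interferon response element, GAAA, any 2 bases and again GAAA, in capitals on either strand, in the same 250 bases from RefSeq (GRCh38.p14). IFIT1 is at chr10:89392373-89392622 on the plus strand with matches at -116 and -103, and IFITM1 is at chr11:313790-314039 on the plus strand with a match at -40.
IFIT1: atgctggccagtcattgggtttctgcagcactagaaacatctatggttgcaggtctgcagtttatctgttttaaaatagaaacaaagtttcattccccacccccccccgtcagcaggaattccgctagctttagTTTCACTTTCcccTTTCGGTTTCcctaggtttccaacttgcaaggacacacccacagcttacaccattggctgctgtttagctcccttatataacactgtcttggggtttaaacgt
IFITM1: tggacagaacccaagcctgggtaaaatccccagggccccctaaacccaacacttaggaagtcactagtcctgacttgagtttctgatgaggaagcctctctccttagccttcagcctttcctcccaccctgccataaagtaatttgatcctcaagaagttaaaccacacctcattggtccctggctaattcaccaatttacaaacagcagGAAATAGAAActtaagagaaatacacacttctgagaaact
The motif was in 6 of the 9 called genes (66.7%), in 11 of the 24 uncalled members with a window (45.8%) and in 2.57% of all genes with a window. OAS1, IRF9 and IFI35 held none in this window. IFIT1 was planned for printing and IFITM1 was not. The element core of the amino acid response, TGATGNAA, was in 4 of 25 measured members of that list with a window (16%). It was in 2.23% of all, and in 0 of 5 of the called higher ones. The NIBAN1 window, also planned for printing, held 0 matches to it and is not printed.

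**Figure D4:**
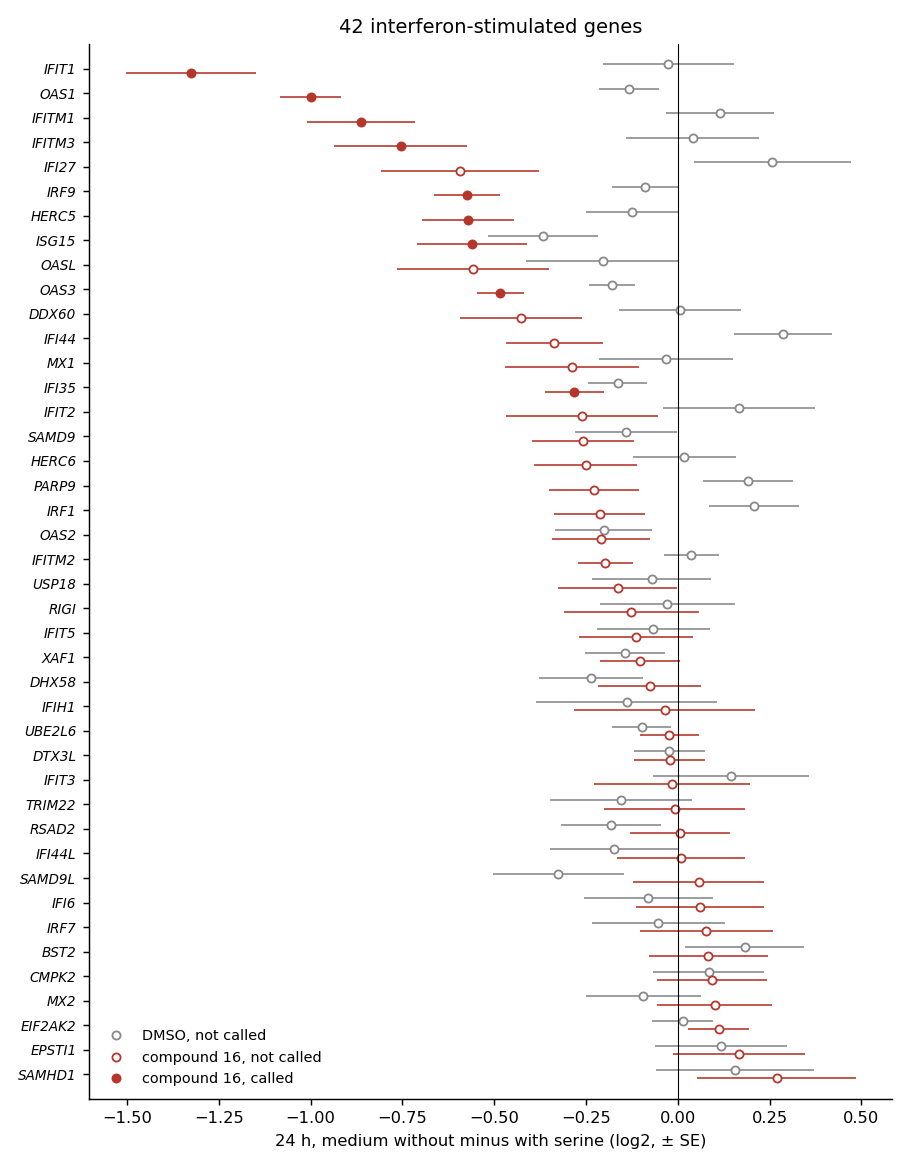
Log2 difference ± SE between medium without and with serine at 24 h (x axis) for 42 interferon-stimulated genes (y axis, ordered by the difference under the compound), under compound 16 (red) and in DMSO (grey); filled points were called. The 9 filled points run from -1.33 for IFIT1 to -0.28 for IFI35, and 0 DMSO points are filled.

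Cytosolic heat shock genes, chaperones that heat shock factor induces, were higher without serine in 7 of 15 cases (46.7%, against 1.85% of all genes) and lower in 0, with a median of 0.15. HSPA1B, an inducible HSP70, lay at 10.49, 10.33 and 10.40 without and 9.88, 9.96 and 10.04 with serine, with no overlap, and differed by 0.45 ± 0.06 (1.36-fold, adjusted p = 2.5e-06). HSPA1A differed by 0.28 ± 0.05, but its sequence is nearly that of HSPA1B, so how signal falls between the 2 is uncertain. HSPH1 differed by 0.29 ± 0.06, DNAJB1 by 0.21 ± 0.05, DNAJA1 by 0.19 ± 0.06, HSPA8 by 0.18 ± 0.04 and HSP90AA1 by 0.15 ± 0.05. At 6 h the direction had been the opposite, with 12 of the 15 lower (80%, against 5.54% of all genes, median -0.50) and 0 higher, among them HSPA2 by -1.31, HSPA1B by -1.17 and HSPH1 by -0.77. The change of the effect from 6 h to 24 h was positive for 10 members (against 1.96% of all genes), at 1.62 for HSPA1B (adjusted p = 1.54e-16) and 1.31 for HSPA2, which stood at 0.00 ± 0.07 at 24 h. In DMSO at 24 h 0 of the 15 were called by limma (3 at an unadjusted p under 0.05). The interaction was positive for only 2 of the 15 (against 0.384% of all genes): HSPA1B (0.44, adjusted p = 0.00265) and HSPA1A (0.27, adjusted p = 0.0303). The HSPA1A interaction was lost in 12 of 20 alternatives, and that of HSPH1 did not pass (0.27, adjusted p = 0.122). In DMSO the HSPA1B arrays ran from 10.04 to 10.14 in medium lacking serine and from 10.07 to 10.10 in full medium, below the compound arrays without serine and level with or above those with it. With the array 93, 94, 100 or 101 left out, the count of 7 was 4, and with only the 6 arrays fitted it was 0 in limma (5 at an unadjusted p under 0.05).

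**Figure D5:**
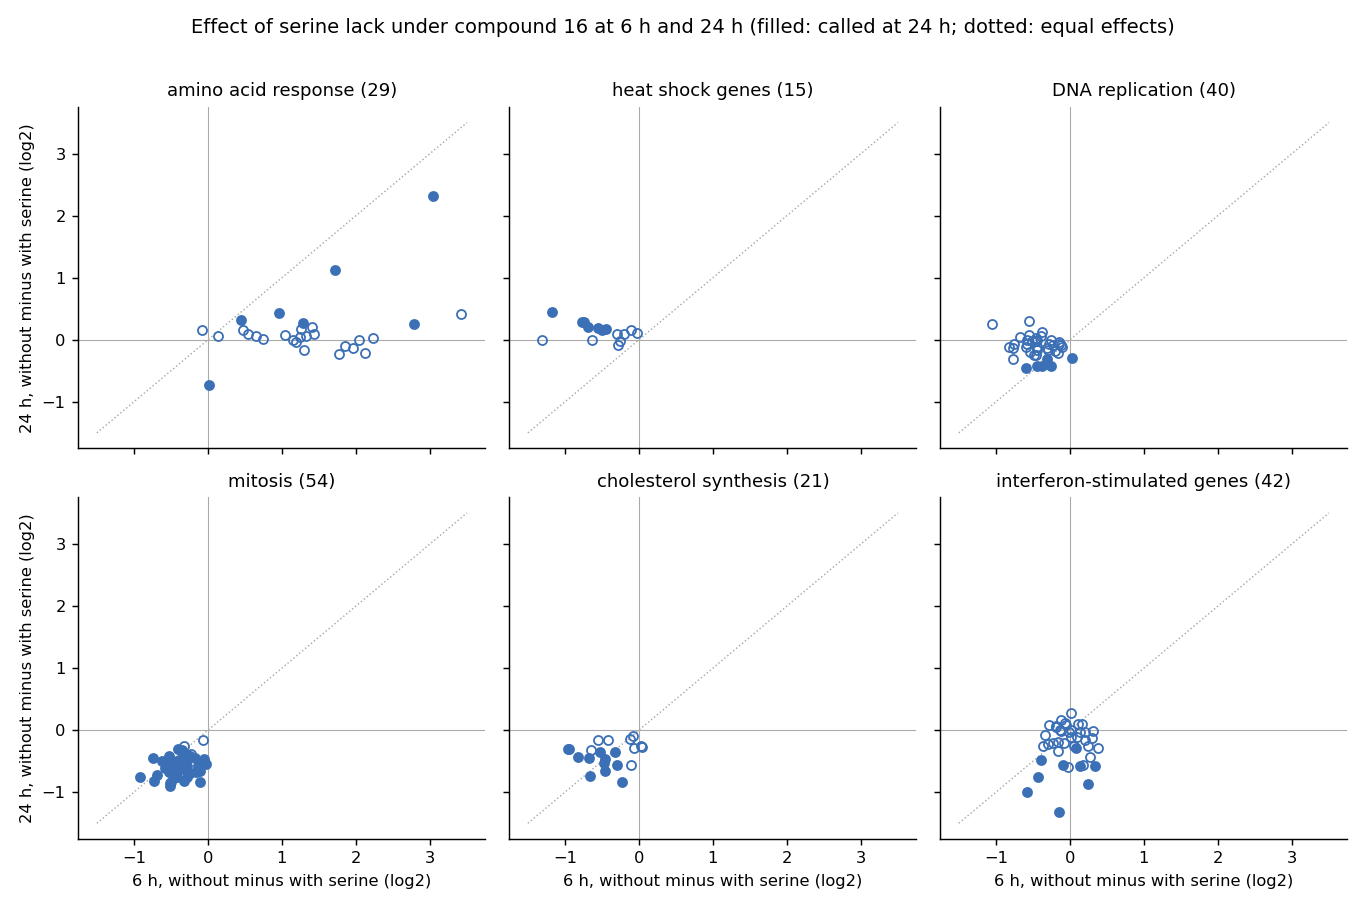
Log2 difference between medium without and with serine under compound 16 at 6 h (x axis) and 24 h (y axis) for the members (points) of 6 gene lists; filled points were called at 24 h and the dotted line marks equal effects. Amino acid response genes spread to 3.42 at 6 h and mostly lie near 0 at 24 h, and heat shock genes lie left of 0 at 6 h and mostly above 0 at 24 h.

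TXNIP and ARRDC4, arrestins whose transcription follows sugar phosphates, were both higher without serine. TXNIP lay at 9.51, 9.18 and 9.30 without and at 8.28, 8.22 and 8.08 with serine, and differed by 1.13 ± 0.23 (2.19-fold, adjusted p = 0.00134). The 5 probe sets of TXNIP ran from 0.33 to 1.13. In DMSO TXNIP lay at 8.51, 8.55 and 8.13 without and 7.73, 7.45 and 7.31 with serine, a gap of 0.90 that did not pass (adjusted p = 0.109), and the interaction of 0.23 did not pass either (adjusted p = 0.87). ARRDC4 differed by 0.48 ± 0.11 (adjusted p = 0.0064), a call lost without array 99 or 101. PKM, the named target of the compound, lay at 9.57, 9.75 and 9.60 without and 9.92, 9.89 and 9.77 with serine. The PKM difference was -0.22 ± 0.07 (adjusted p = 0.0401), and the call was lost in 9 of 14 alternatives, among them the runs without array 93, 94, 99 or 101, while probe sets of the gene ran from -0.31 to 0.28. Of 21 glycolysis genes, PFKP, a phosphofructokinase, was higher by 0.21 ± 0.05 (4.76%, against 1.85% of all genes). ALDOC, an aldolase, was lower by -0.75 ± 0.16, beside PKM (9.52%, against 2.54% of all genes). The 5 probe sets of ALDOC ran from -0.75 to 0.06, with 4 below 0.

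Among the largest single differences were several genes of no list. CLGN, a testis-enriched ER chaperone, lay at 9.02, 9.04 and 9.14 without and 7.80, 8.01 and 7.95 with serine (1.15 ± 0.17, 2.22-fold, adjusted p = 1.24e-05). NEFL, a neurofilament subunit, differed by 1.31 ± 0.30 (2.48-fold), UGT2B10, a glucuronosyltransferase, by 0.98 ± 0.16, FBXL16 by 0.86 ± 0.14, CPEB1 by 0.85 ± 0.22, SLC16A14 by 0.76 ± 0.22, ZSWIM5 by 0.75 ± 0.15, ZNF33B and DPY19L3 by 0.74 each and PABPC1L by 0.73 ± 0.13. DPY19L3 had 5 probe sets, 2 of them above 0, which ran from -0.10 to 0.74. CPEB1 had 7, 6 of them above 0, from -0.11 to 0.85, and UGT2B10 had 2, at 0.15 and 0.98. The calls of CPEB1, SLC16A14, ZNF33B and DPY19L3 were each lost without at least 1 array: 93 or 99 for CPEB1, 94, 95 or 99 for SLC16A14, 93, 95, 99 or 101 for ZNF33B and 93 for DPY19L3. NR4A1, an orphan nuclear receptor of the immediate early class, lay at 7.88, 8.01 and 7.78 without and 9.04, 8.81 and 8.93 with serine (-1.04 ± 0.10, 2.06-fold lower, adjusted p = 1.27e-09). The 7 probe sets of NR4A1 ran from -1.04 to 0.10, with 6 below 0. Other falls were MGAM (-1.15 ± 0.16), the galectin gene LGALS2 (-1.11 ± 0.18), the basement membrane gene NID2 (-1.06 ± 0.21), TNNC1 (-1.03 ± 0.17), the lysosomal protease gene CTSV (-1.01 ± 0.11), ARHGEF39 (-0.99 ± 0.11), FGFBP1, a carrier of fibroblast growth factors (-0.90 ± 0.15), H2AC20 (-0.89 ± 0.16) and CEACAM7 (-0.87 ± 0.18). Probe sets ran from -1.06 to -0.35 for NID2 and from -0.87 to -0.02 for CEACAM7. In DMSO NID2 (-0.89), TNNC1 (-0.73), CTSV (-0.48) and UGT2B10 (0.66) differed the same way, though none was called. Of the genes in this paragraph the interaction with DMSO passed for ZSWIM5, NR4A1, LGALS2, ARHGEF39, FGFBP1 and H2AC20, and for no other.

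Smaller groups held few called members. Their counts stand against 1.85% of all genes called higher and 2.54% called lower. Of 18 ribosome biogenesis genes 3 were higher (16.7%), RRP12 (0.38 ± 0.08), NOLC1 (0.29 ± 0.05, and -0.00 with another probe set) and PES1 (0.26 ± 0.07), with a median of 0.15. The PES1 call was lost without array 94, 95, 100 or 101. Of 15 purine and pyrimidine synthesis genes CTPS1, the CTP synthase, and ATIC were higher (13.3%), by 0.40 ± 0.08 and 0.19 ± 0.05, and the ATIC call was lost without array 93, 94, 99 or 101. Of 25 immediate early genes JUN was higher (0.50 ± 0.15, adjusted p = 0.0428) and NR4A1 lower (4% each), and the JUN call was lost without any 1 of the 6 arrays but 99. Of 20 unfolded protein response genes HYOU1 was higher (0.29 ± 0.07) and CALR, an ER chaperone, lower (-0.63 ± 0.10), which is 5% each way. The HYOU1 call was lost without array 95 or 101, and its 9 probe sets ran from -0.58 to 0.50, with 7 above 0. Of 21 p53 targets TNFRSF10B and SPATA18 were higher (9.52%), by 0.17 and 0.77, and the arrays of SPATA18 overlapped. The count was 0 without array 93, 100 or 101 and 1 without array 99. The TNFRSF10B call was lost in 10 of 14 alternatives, among them the runs without any 1 of the 6 arrays, and its 3 probe sets ran from -0.15 to 0.24. The mucosal defence gene LCN2 was the 1 of 14 airway secretory genes called, at 10.73, 10.75 and 10.77 without and 10.16, 10.11 and 10.14 with serine (0.61 ± 0.07, adjusted p = 6.77e-08). LAMB3 and TGFBI were lower among 18 matrix and TGF-beta targets (11.1%), by -0.44 and -0.17, a count that was 0 without array 93 or 100 and 1 without any other of the 6. NDRG1 was lower among 10 hypoxia genes (10%), by -0.32 ± 0.07, a call lost without array 95 or 99. In 4 more lists 0 members were called: inflammatory genes (24 measured), NRF2 targets (17), lysosome and autophagy (21) and oxidative phosphorylation (16), with medians of 0.05, 0.00, 0.01 and 0.03 and with 4, 3, 4 and 5 members at an unadjusted p under 0.05 in limma. The chemokine gene CCL2 stood at 0.70 ± 0.22 (adjusted p = 0.0601) at 24 h after -1.23 at 6 h, and the difference between these effects passed (1.93, adjusted p = 6.27e-05).

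Against 6 h as a whole, when 2146 genes (11.8%) had been called, 1135 higher (6.22%) and 1011 lower (5.54%), the effect at 24 h differed for 898 genes (4.92%). Of the 337 genes higher at 24 h, 124 had been higher at 6 h (36.8% of 337, 10.9% of 1135) and 21 lower. Of the 463 lower at 24 h, 206 had been lower at 6 h (44.5% of 463, 20.4% of 1011) and 11 higher. The arrays of the 2 times are separate, and each time has its own control arrays.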

How the data were processed

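Per the labels, RNA of A549 cells was hybridised to Affymetrix HG-U219 arrays. The deposited values are log2 signals of 49386 probe sets in 50 arrays of 17 groups, and the submitters' processing notes name RMA and limma without versions. Array medians ran from 5.4 to 5.54. No values were renormalized. Of the probe sets 45253 carried 1 gene symbol, 1327 several, 2713 none and 93 were controls. Those with 1 symbol gave 18239 genes, each taken from the probe set with the highest mean signal (11822 genes had several). List members without a probe set in the annotation used were not analysed here.

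One limma model (3.58.1, in R 4.3.3) with a mean per group was fitted to all 50 arrays, with 33 residual degrees of freedom, and each contrast was adjusted by Benjamini-Hochberg over all genes, with calls at 0.05. An exact permutation test of 3 against 3 arrays cannot go below 0.10 (two-sided), so none was used. Precision is limited by the number of arrays. The script was tested on simulated data. The gene lists (31 lists, 616 members, 578 measured) and the groups were chosen with earlier results of these data known. Genes are named by rule: PKM, PHGDH, PSAT1, PSPH, SHMT2, MTHFD2, ASNS, TXNIP, IFIT1, NIBAN1 and KIF20A always, the 15 largest called rises and falls whose arrays do not overlap, up to 3 called members of each list by p, and the 5 largest differences each way from DMSO and from 6 h, 89 in all. Further members of described lists are named with their values. Alternatives were a filter at the 40th percentile of signal, quantile normalization, median centring, a trended robust prior, array weights, only the arrays of the comparison, other choices of probe set, and leaving out each array.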

Additional observations from a re-analysis of the deposited data

Results flagged for a closer look

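The effect of serine lack at 24 h differed between compound and DMSO for 234 genes by a test of the difference itself, the interaction term in limma. Among the named genes with a larger value under the compound were NIBAN1 (1.62), BEX2 (1.03), BCAT1 (1.01), ASNS (0.55) and PSAT1 (0.50), and the zinc finger genes ZNF177 (0.90) and ZNF540 (0.87). ASNS and PSAT1 were not called under the compound (0.06 and 0.11) and were lower without serine in DMSO (-0.49 and -0.39). The ZNF540 call was lost in 14 of 19 alternatives, with a lowest value of 0.051. Its arrays at 24 h lay between 3.94 and 4.96, under the 40th percentile of signal (5.16). ZNF177, whose mean signal also lay under it, differed by 0.21 under the compound, which did not pass, and by -0.69 in DMSO. Named genes with a lower value under the compound were IFIT1 (-1.30), ALDOC (-1.29), FGFBP1 (-1.28), TCN1 (-1.20), BCL2L15 (-1.06) and KIF20A (-0.82).

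The effect under the compound differed between 24 h and 6 h for 898 genes by the same kind of test. Among amino acid response genes and genes of serine and one-carbon metabolism the differences, 24 h minus 6 h, were STC2 (-3.00), TRIB3 (-2.54), NUPR1 (-2.34), DDIT3 (-2.21), MTHFD2 (-1.33), ASNS (-1.26), PSAT1 (-0.94), PSPH (-0.82), PHGDH (-0.75) and SHMT2 (-0.44). Other negative ones were SNTB1 (-2.29), TXNIP (-1.27), IFIT1 (-1.17) and KIF20A (-0.38). Positive ones were CCL2 (1.93), HSPA1B (1.62), HSPA2 (1.31), CDC25A (1.31) and PAQR9 (1.25).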

How the results depend on the processing

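The count of 800 genes at 24 h under the compound was 91 when only its 6 arrays were fitted, 451 with the probe set of the largest interquartile range, and 557 to 694 with 1 array left out. The DMSO count of 29 was 53 without dim genes, 51 with a trended robust prior, 56 with the mean of probe sets, 14 with the interquartile choice, 0 with its own arrays only (1283 at an unadjusted p under 0.05 in limma), and 9 to 39 with 1 array left out. For the difference from DMSO, 234 became 67 with its own arrays, 124 with the interquartile choice and 158 to 214 with 1 array left out. At 6 h 2146 became 814, 1290 and 1580 to 1949, and for 24 h minus 6 h 898 became 247, 381 and 635 to 797. The fit to few arrays has fewer residual degrees of freedom. The interquartile choice turned DPY19L3 (-0.074) and NOLC1 (-0.003) at 24 h, and ARHGEF39 in 24 h minus 6 h (0.113). For these the cause was not tested. Of 74 named genes called at 24 h, 52 lost the call with only the 6 arrays of the comparison fitted. The call was lost without some array for 19, and 21 kept it in every alternative. No paired analysis was possible because the groups compared share no replicate numbers. Probe sets near background compress differences, so dim genes have only rough values.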
